A study of Mus musculus with 18 samples.

Results

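The 3 libraries of AT3 cells given both A-241 and IFNγ (A-241+IFNγ replicates 1 to 3) were set against the 3 libraries of cells given neither agent (DMSO replicates 1 to 3), 6 of the 18 libraries of the series. AT3 is a mouse mammary carcinoma line used as a model of triple-negative breast cancer, and a single line was profiled. Cells received the small molecule or its DMSO vehicle for 1 h and then recombinant mouse IFNγ or its vehicle for a further 2 h, so that every culture was collected 3 h after the first addition. A-241 and A-485 inhibit the acetyltransferase activity of P300 and CBP. The other 4 groups were A-241, A-485, IFNγ and A-485+IFNγ, also 3 libraries each. The inhibitor dose was 250 nM for A-241 and 1000 nM for A-485, by the study's methods and the labels of the libraries with inhibitor alone. The labels of the A-241+IFNγ and A-485+IFNγ libraries name no dose. The comparison asked which genes stood above, at or below the untreated level after both agents had acted together. The labels call the replicates biological, whereas the study's design text calls them technical, so the p-values measure only the spread between these libraries.

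IFNγ binds its receptor on the cell surface and activates the kinases JAK1 and JAK2. The signal reaches gamma-activated sites (GAS) in promoters such as that of Irf1, and the IRF1 protein then binds interferon-stimulated response elements (ISRE) at a wider set of genes for antigen presentation, chemokines and GTPases of cell-autonomous immunity. P300 and CBP acetylate histones at active enhancers and serve as co-activators for IRF1 and many lineage transcription factors.

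Each library was sequenced from the 3′ ends of its mRNA, with 3417167 to 6145972 counted reads among the 6 libraries compared and 3417167 to 7856830 over all 18. Levels are given as CPM (counts scaled to a common library size). DMSO replicate 3 stood apart from the other DMSO libraries, and its root-mean-square distance from its group in log2 CPM was 1.1, where the remaining libraries compared had 0.359 to 0.767. Gm42418, a locus that overlaps ribosomal RNA sequence, held 20.1% of its counts and 23% of those of IFNγ replicate 2. Of 7 epithelial marker genes tested, 4 (Krt8, Epcam, Cdh1 and Cldn7) were within 2-fold of DMSO, 2 were unresolved and 1, the keratin gene Krt18, was lower (-0.78 ± 0.15 log2 units, adjusted p = 0.00348, edgeR). The call for Krt18 was lost without A-241+IFNγ replicate 1 (0.0188) or 2 (0.0272) or DMSO replicate 1 (0.0113) or 2 (0.0123). Krt7 was unresolved (-0.88, adjusted p = 0.0515), and Krt19 was listed at 0 counts. In these bulk samples, fewer cells of a kind and less RNA per cell cannot be told apart.

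After both treatments, 107 of 11964 genes tested stood above the untreated level (0.894%) and 411 below it (3.44%), at an adjusted p under 0.01 by edgeR's quasi-likelihood test over all genes. The median difference was 1.32 log2 units among the higher genes and -1.67 among the lower genes. A further 5633 genes (47.1%) were within 2-fold of DMSO, meaning that they were not called and that the 95% interval of their fold change lay inside that range. The other 5813 genes (48.6%) were unresolved, since they were neither called nor bounded within 2-fold. The largest increases included Gm4841, Socs1, Cxcl10, Irf1 and Gbp2, and the largest decreases included Depp1, Trib2 and Cyp26b1. When DMSO replicate 3 and IFNγ replicate 2 were both left out, 228 genes were higher and 656 lower. Without IFNγ replicate 2 alone, 201 were higher. With the replicate number fitted as a block, 74 genes were higher and 316 lower. Leaving out A-241+IFNγ replicate 1, 2 or 3 gave 55, 62 and 55 higher genes and 222, 221 and 240 lower genes, and leaving out DMSO replicate 1 gave 272 lower genes.

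**Figure D1:**
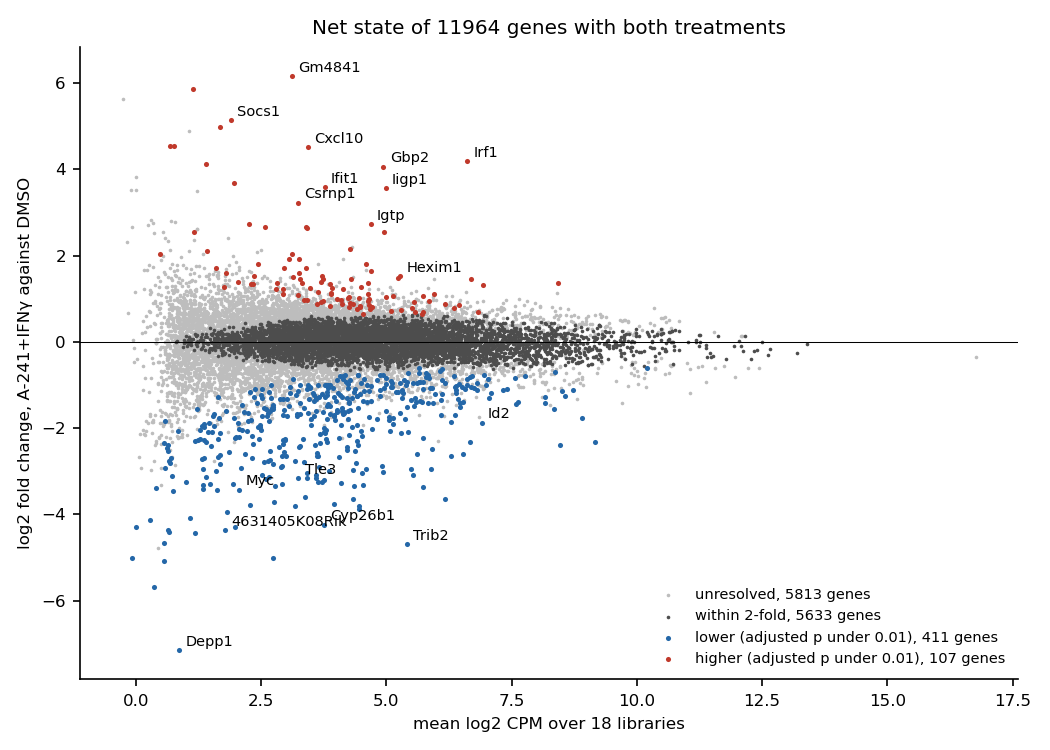
Difference between A-241+IFNγ and DMSO (vertical axis, log2 fold change) against mean abundance over all 18 libraries (horizontal axis, log2 CPM) for the 11964 genes tested, 1 point a gene, coloured by state. The 107 higher genes hold most of the labelled interferon-responsive genes and the 411 lower genes reach down to Depp1, near the bottom of the plot.

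To follow the interferon response without choosing genes on the libraries compared, genes that IFNγ raised beside the other inhibitor were taken from A-485+IFNγ against A-485, which share no library with the comparison. This gave 89 genes (0.744% of those tested), and they are by construction genes that IFNγ could still raise in the presence of a P300/CBP inhibitor. With A-241+IFNγ, 30 of the 89 (33.7%) stood above DMSO, against 0.894% of all genes tested. Another 19 (21.3%) were within 2-fold of DMSO, 4 (4.49%) stood below it and 36 (40.4%) were unresolved. Most of the 19 were called raised by IFNγ alone over DMSO. Some were not, such as mt-Nd6 (-0.31 log2 units, adjusted p = 0.794, edgeR), Atp7a (0.47, adjusted p = 0.512) and Pde4b (0.46, adjusted p = 0.609). The median of the 89 was 1.03 log2 units above DMSO, beside 0.01 for all genes. Their median level was 31.7% of that with IFNγ alone, and 61 of the 89 were called below IFNγ alone (3.54% of all genes were). Against A-241 alone, 23 of the 89 were called higher (0.192% of all genes were). Both of these comparisons share the A-241+IFNγ libraries with the main one. Leaving out DMSO replicate 3 and IFNγ replicate 2 gave 47 genes higher and 60 within 2-fold from a class set again on the remaining libraries.

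**Figure D2:**
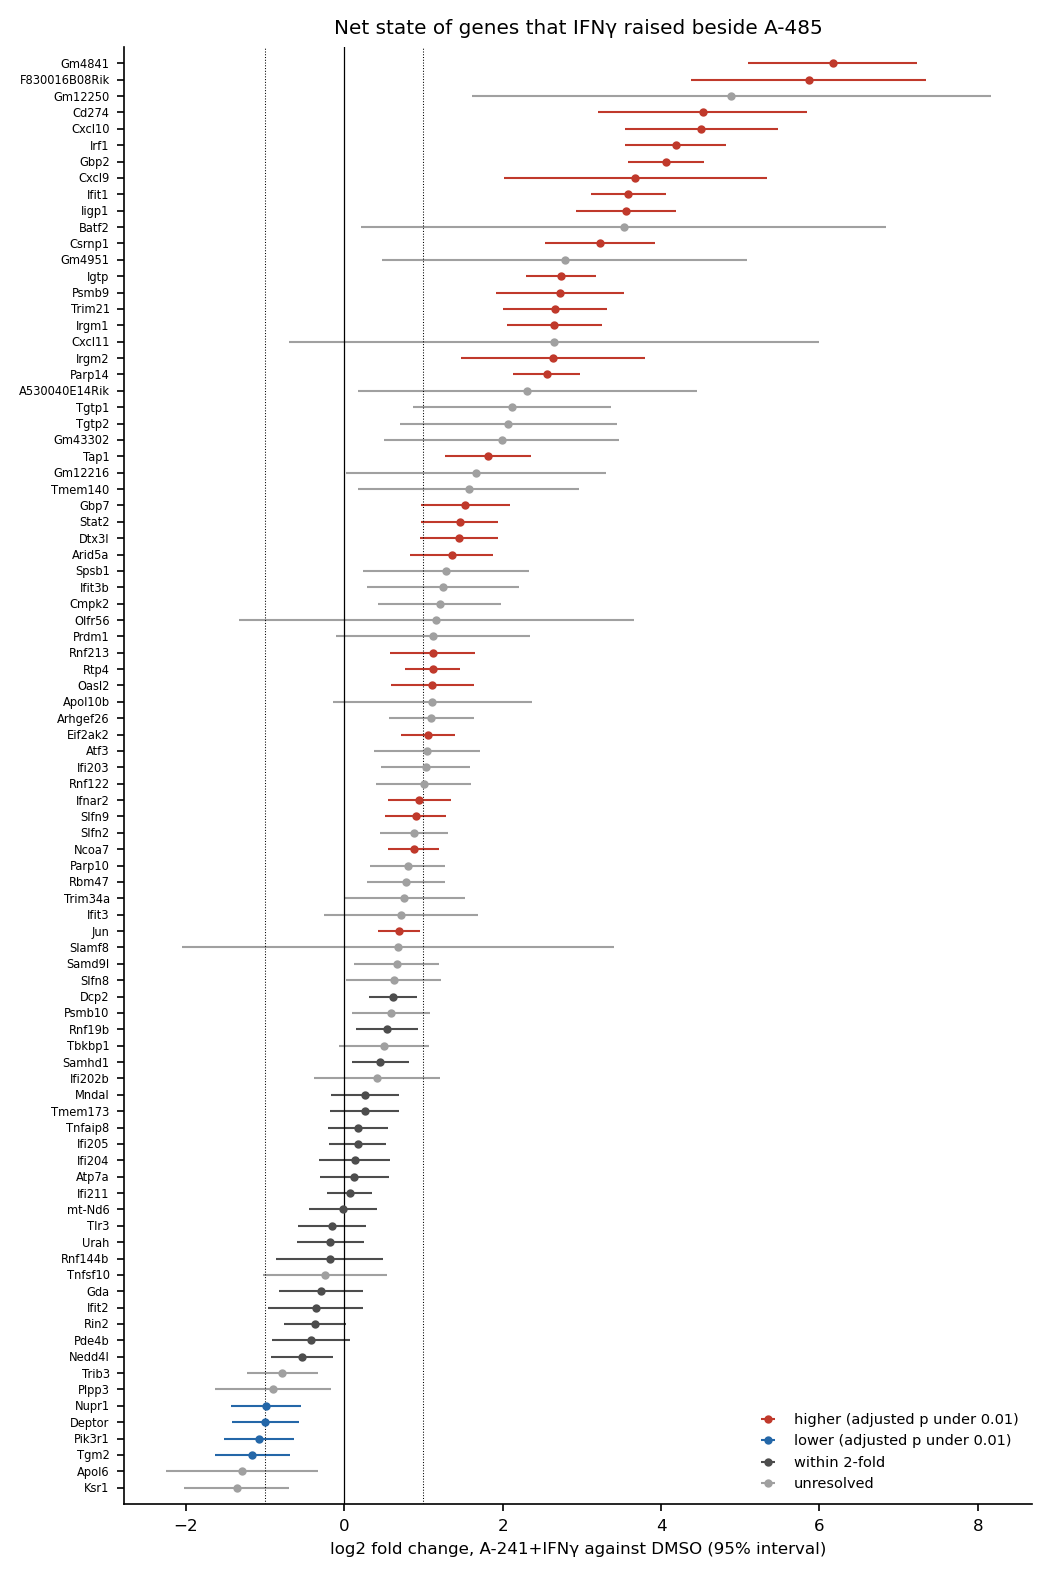
Genes raised by IFNγ in the presence of A-485 (the 89 save 1 not reported here), 1 row a gene, with the log2 fold change of A-241+IFNγ against DMSO on the horizontal axis, bars for its 95% interval and colours for the state with both treatments. Dotted lines mark a 2-fold change. The genes run from Gm4841 at the top, far above DMSO, through the 19 genes within 2-fold, to the 4 called lower, with wide intervals for unresolved genes such as Slamf8 and Cxcl11.

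Irf1, the transcription factor at the head of the secondary response, stayed far above the untreated level. It stood at 23.4, 23.2 and 11.4 CPM in the DMSO libraries and at 352, 351 and 365 CPM with A-241+IFNγ. Every A-241+IFNγ library lay above every DMSO library, and the 3 were within a narrow band of each other. The difference was 4.18 ± 0.30 log2 units (SE, adjusted p = 2.51e-07, edgeR). Irf1 stood at 720, 408 and 819 CPM with IFNγ alone, and the difference from IFNγ alone, -0.87 log2 units, did not pass the threshold (adjusted p = 0.0547). It was 4.10 log2 units above A-241 alone (adjusted p = 1.16e-06).

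The promoter of Irf1 is shown because it holds a GAS site, an element of the early IFNγ response. A further RefSeq window of Irf1, at chr11:53770223-53770522, held neither a GAS nor an ISRE match. The window shown surrounds another annotated start, at chr11:53769764-53770063 on the plus strand of GRCm38.p6 (RefSeq). Capitals mark the site, which begins 90 bases before that start.
Irf1: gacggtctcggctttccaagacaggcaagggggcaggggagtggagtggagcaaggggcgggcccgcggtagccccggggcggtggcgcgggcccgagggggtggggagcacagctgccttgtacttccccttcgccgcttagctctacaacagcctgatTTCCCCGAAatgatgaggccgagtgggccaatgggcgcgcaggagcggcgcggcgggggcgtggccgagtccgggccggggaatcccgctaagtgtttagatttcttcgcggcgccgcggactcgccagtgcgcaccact

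Among the 15 tested genes of the IFNγ receptor and its JAK-STAT pathway, 3 stood above DMSO, 7 were within 2-fold and 5 were unresolved, with none called lower. For this and the later gene lists, the shares of all genes tested were 0.894% higher, 3.44% lower, 47.1% within 2-fold and 48.6% unresolved. The 7 genes within 2-fold were thus near the general share. Stat2 rose by 1.46 ± 0.23 log2 units (adjusted p = 0.000583). Socs1, the feedback inhibitor of JAK kinases, stood at 0.421, 0.63 and 0 CPM with DMSO and at 10.2, 22.3 and 14.4 CPM with both agents. Its adjusted p of 0.0078 rose to between 0.0137 and 0.0362 with any 1 of the 6 libraries left out and was 0.0168 with the replicate number as a block. The kinase gene Jak1 (-0.07) and the phosphatase gene Ptpn11 (-0.02) were within 2-fold.

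Of 9 interferon regulatory factors and transactivators tested, 3 stood above DMSO, 3 were within 2-fold and 3 were unresolved. Irf8, a myeloid and interferon-inducible factor, had 2 counts in all over the DMSO libraries and 84 over the A-241+IFNγ libraries, a ratio of 37.7 with an exact counting interval of 10.1 to 316. It stood at 5.64, 5.21 and 5.35 CPM with both agents against 28.2, 22.6 and 36.3 CPM with IFNγ alone. Without DMSO replicate 1 or 2 its adjusted p was 0.0118 and 0.012. Irf7, a factor of the type I interferon loop, rose from 12.6, 10.9 and 5.52 CPM to 27.8, 22.6 and 19.1 CPM (1.23 ± 0.26 log2 units, adjusted p = 0.006), and that p was 0.0105 with the replicate block and 0.0107 to 0.0361 without A-241+IFNγ replicate 1, 2 or 3 or DMSO replicate 2 or 3. Ciita, the master activator of MHC class II genes, was too low to test, with at most 2 counts in a DMSO library and 1 in an A-241+IFNγ library, but reached 30 counts with IFNγ alone.

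Guanylate-binding proteins, which coat and disrupt intracellular pathogens, ended at different heights although Gbp2, Gbp3 and Gbp7 are neighbours on chromosome 3. Of the 5 tested, Gbp2 and Gbp7 stood above DMSO, Gbp3 was within 2-fold, and Gbp4 and Gbp2b were unresolved. Gbp2 rose from 4.42, 4.25 and 6.89 CPM to 84.2, 81.3 and 88.1 CPM (4.06 ± 0.23 log2 units, adjusted p = 1.37e-08). Gbp7 rose from 5.89, 3.31 and 6.89 CPM to 15.4, 14.3 and 15.2 CPM (1.53 ± 0.26 log2 units, adjusted p = 0.00138). Gbp3 stood at 6.1, 7.09 and 7.93 CPM with DMSO and at 7.6, 6.34 and 8.64 CPM with both agents, a difference of 0.10 log2 units with a 95% interval of -0.40 to 0.60. With IFNγ alone the same gene reached 50.4, 77.6 and 44 CPM. The DMSO and A-241+IFNγ libraries of Gbp3 overlapped, whereas those of its neighbours Gbp2 and Gbp7 did not. All 3 genes were called below IFNγ alone, by 2.01 (Gbp2), 2.21 (Gbp7) and 2.92 (Gbp3) log2 units. Gbp2b belongs to the same gene family and locus, so reads shared between related members are uncertain.

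The promoters of Gbp2 and Gbp3 are shown side by side because their levels parted while both hold the ISRE core, searched as GAAANNGAAA on both strands. Windows are on the plus strand of GRCm38.p6, at chr3:142620413-142620712 for Gbp2 and chr3:142559794-142560093 for Gbp3. A further RefSeq window of Gbp3, at chr3:142560106-142560405, held no ISRE core and is not shown. Capitals mark the core on its reverse strand, 59 bases before the start of Gbp2 and, as 2 overlapping matches, 45 and 39 bases before that of Gbp3.
Gbp2: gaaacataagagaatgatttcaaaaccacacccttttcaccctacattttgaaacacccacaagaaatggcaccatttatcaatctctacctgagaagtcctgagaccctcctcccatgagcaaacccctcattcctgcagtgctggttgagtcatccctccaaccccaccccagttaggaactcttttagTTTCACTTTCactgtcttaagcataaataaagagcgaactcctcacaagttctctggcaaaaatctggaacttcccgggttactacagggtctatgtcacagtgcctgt
Gbp3: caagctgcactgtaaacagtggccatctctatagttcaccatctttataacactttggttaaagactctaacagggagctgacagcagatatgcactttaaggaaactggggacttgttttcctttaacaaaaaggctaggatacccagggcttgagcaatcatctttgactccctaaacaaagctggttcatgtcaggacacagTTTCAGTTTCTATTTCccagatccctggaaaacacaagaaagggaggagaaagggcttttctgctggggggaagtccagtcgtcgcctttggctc

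Immunity-related GTPases, which attack the vacuoles of intracellular parasites, were mostly higher. Of 11 tested, 6 stood above DMSO and 5 were unresolved, with a median of 2.78 log2 units. Igtp rose from 5.05, 4.41 and 6.21 CPM to 36, 30.6 and 36.2 CPM (2.73 ± 0.21 log2 units, adjusted p = 4.65e-07), against 249, 289 and 276 CPM with IFNγ alone. Iigp1 rose from 5.26, 5.04 and 2.76 CPM to 46, 58.9 and 54.3 CPM (3.56 ± 0.30 log2 units, adjusted p = 1.08e-06). These levels were 12.6% (Igtp) and 9.38% (Iigp1) of those with IFNγ alone. Gm4841 held 0.841, 0.315 and 0 CPM with DMSO and 33, 31.2 and 32.7 CPM with both agents (6.17 ± 0.50 log2 units, adjusted p = 8.13e-07). Irgm1, a regulator of the other members, rose by 2.65 ± 0.28 log2 units (adjusted p = 1.28e-05). Irgm2, which overlaps Igtp so that shared reads were counted for both, was higher by 2.64 ± 0.55 (adjusted p = 0.00565). That p for Irgm2 was 0.0125 with the replicate block and 0.0147 to 0.033 without A-241+IFNγ replicate 2 or 3 or any 1 DMSO library. Of the unresolved members, Tgtp1, whose copy Tgtp2 is near-identical, stood at 4.99, 4.39 and 1.85 CPM with both agents against 129, 42.5 and 136 CPM with IFNγ alone.

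Most genes of antigen processing and presentation were unresolved, as were 48.6% of all genes tested. Of 17 tested, 2 were higher, 4 within 2-fold and 11 unresolved. Psmb9, a subunit of the immunoproteasome, rose from 0.841, 1.26 and 2.41 CPM to 8.47, 10.1 and 9.47 CPM (2.73 ± 0.38 log2 units, adjusted p = 0.000225). Tap1, a subunit of the peptide transporter, rose from 6.52, 10.1 and 11.7 CPM to 30.4, 34.2 and 34 CPM (1.81 ± 0.26 log2 units, adjusted p = 0.000247). The genes overlap and reads in the shared stretch were counted for both. Calr (-0.15), Canx (-0.21) and Pdia3 (0.22), chaperones of class I assembly, were within 2-fold. The immunoproteasome subunit gene Psmb10 (0.59, adjusted p = 0.136) and Tapbp (-0.44, adjusted p = 0.687), which encodes the loading chaperone tapasin, were unresolved. Class I heavy-chain genes H2-K1 (0.93) and H2-D1 (0.91), and B2m (0.72), which encodes the light chain, were unresolved. Cd274, the gene of the checkpoint ligand PD-L1, had 1 count over the DMSO libraries and 34 over the A-241+IFNγ libraries, a ratio of 30.5 with a counting interval of 5.12 to 1.24e+03. It stood at 2.17, 2.28 and 2.06 CPM with both agents and at 21.5, 18.7 and 12.9 CPM with IFNγ alone, 3.01 log2 units lower (adjusted p = 1.77e-05).

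Most chemokine and cytokine genes were unresolved. Of 16 tested, 2 stood above DMSO, 3 below it, 1 was within 2-fold and 10 were unresolved. Cxcl10, which attracts CXCR3-bearing T cells, rose from 0.841, 1.26 and 1.72 CPM to 23.4, 29.4 and 32.3 CPM (4.51 ± 0.46 log2 units, adjusted p = 7.35e-06). Its level was 12.7% of that with IFNγ alone. Cxcl9, another ligand of the same receptor, had 2 counts over the DMSO libraries and 33 over the A-241+IFNγ libraries, a ratio of 14.8 (3.78 to 127). With IFNγ alone it stood at 150, 97.5 and 177 CPM, against 1.95, 1.95 and 2.47 CPM with both agents. Cxcl9 was thus called above DMSO and 6.05 log2 units below IFNγ alone (adjusted p = 1.68e-07). The call over DMSO (adjusted p = 0.00671) was 0.0105 with the replicate block and 0.0182 to 0.0389 with any library but DMSO replicate 1 left out. Cxcl5, an attractant of neutrophils, stood at 78.7, 81.5 and 15.5 CPM with DMSO and at 9.12, 8.62 and 5.35 CPM with both agents (-2.94 ± 0.66 log2 units, adjusted p = 0.00971). Its p was 0.0187 with the replicate block and 0.029 to 0.0575 with any library but DMSO replicate 3 left out. Il34, a ligand of the CSF1 receptor, fell by 3.09 ± 0.54 log2 units (adjusted p = 0.00155), a call lost without A-241+IFNγ replicate 2 (0.014) or 3 (0.0104).

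The Cxcl10 promoter is shown as an ISRE-bearing window of a gene that kept only a small part of its IFNγ level. It lies at chr5:92348840-92349139 on the minus strand of GRCm38.p6, and the capitals mark the ISRE core, 213 bases before the start. Art3 overlaps Cxcl10 in the annotation, and reads were assigned without regard to strand.
Cxcl10: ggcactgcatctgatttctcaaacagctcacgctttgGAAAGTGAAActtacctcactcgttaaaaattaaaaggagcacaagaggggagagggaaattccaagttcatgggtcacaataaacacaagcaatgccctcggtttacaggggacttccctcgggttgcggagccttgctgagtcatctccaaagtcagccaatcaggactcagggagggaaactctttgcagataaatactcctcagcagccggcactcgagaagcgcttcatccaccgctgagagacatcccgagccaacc

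Among 36 antiviral interferon-stimulated genes, 11 stood above DMSO, 11 were within 2-fold and 14 were unresolved, with a median of 0.81 log2 units. Ifit1, which binds foreign RNA caps, rose from 1.89, 2.99 and 3.1 CPM to 27.4, 34.5 and 34.2 CPM (3.59 ± 0.22 log2 units, adjusted p = 4.16e-08). Its level was 64.7% of that with IFNγ alone, and the difference from IFNγ alone did not pass (-0.63, adjusted p = 0.0395). Ifit2, of the same family and gene cluster, stood at 8.62, 6.14 and 9.31 CPM with DMSO and 6.3, 6.18 and 5.97 CPM with both agents, within 2-fold. Its level with IFNγ alone was 22.6, 38.3 and 29.1 CPM. The ADP-ribosyltransferase gene Parp14 rose from 11.4, 9.93 and 9.65 CPM to 61, 60.9 and 60.7 CPM (2.56 ± 0.20 log2 units, adjusted p = 4.8e-07), and its partner Dtx3l rose by 1.45 log2 units. Trim21, an antibody receptor and ubiquitin ligase, rose by 2.66 ± 0.31 log2 units (adjusted p = 2.99e-05). The dNTPase gene Samhd1 stood at 67.5, 52.8 and 42.1 CPM with DMSO and 77.7, 72.6 and 72.4 CPM with both, within 2-fold (0.45, 95% interval 0.09 to 0.81), against 250, 198 and 238 CPM with IFNγ alone.

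Of the Ifi200 family of interferon-inducible DNA sensors on chromosome 1, Ifi211, Ifi205, Mndal and Ifi204 were within 2-fold of the untreated level, whereas Ifi203 and Ifi202b were unresolved. These genes were singled out after their values were seen. Ifi211 stood at 47.3, 51.4 and 39.6 CPM with DMSO and at 47.3, 48.3 and 50 CPM with both agents, a difference of 0.07 log2 units (95% interval -0.21 to 0.36). With IFNγ alone it stood at 197, 208 and 224 CPM, and with A-241 alone at 21.6, 22.6 and 18.9 CPM. The combined level was thus 1.21 log2 units above A-241 alone (adjusted p = 0.000232) and 2.11 below IFNγ alone (adjusted p = 1.68e-07). Ifi205 held 36.4, 40.2 and 25.2 CPM with DMSO and 38.2, 38.7 and 38.3 CPM with both, 1.27 log2 units above A-241 alone (adjusted p = 0.00154). Mndal held 34.3, 34.7 and 20 CPM and 37.8, 35.3 and 34.4 CPM, 1.26 log2 units above A-241 alone (adjusted p = 0.00841). Ifi204 followed at 4.84, 4.73 and 3.79 CPM against 4.34, 5.86 and 4.53 CPM, although its difference from A-241 alone did not pass (0.98, adjusted p = 0.104). Ifi203 stood at 7.36, 10.2 and 6.89 CPM with DMSO and at 13.2, 19.9 and 17.5 CPM with both agents, so that the groups did not overlap, but its difference of 1.03 log2 units (95% interval 0.46 to 1.59) did not pass (adjusted p = 0.0236). Ifi202b differed by 0.41 log2 units (95% interval -0.38 to 1.20). For 3 of the 4 genes within 2-fold the level with both agents was called above A-241 alone and below IFNγ alone. The genes occupy chr1:173747293-173766943 (Ifi204), chr1:173896345-173913046 (Ifi211) and chr1:174011998-174031810 (Ifi205) on GRCm38, and Mndal overlaps Ifi203. Reads may be shared between these related genes.

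**Figure D3:**
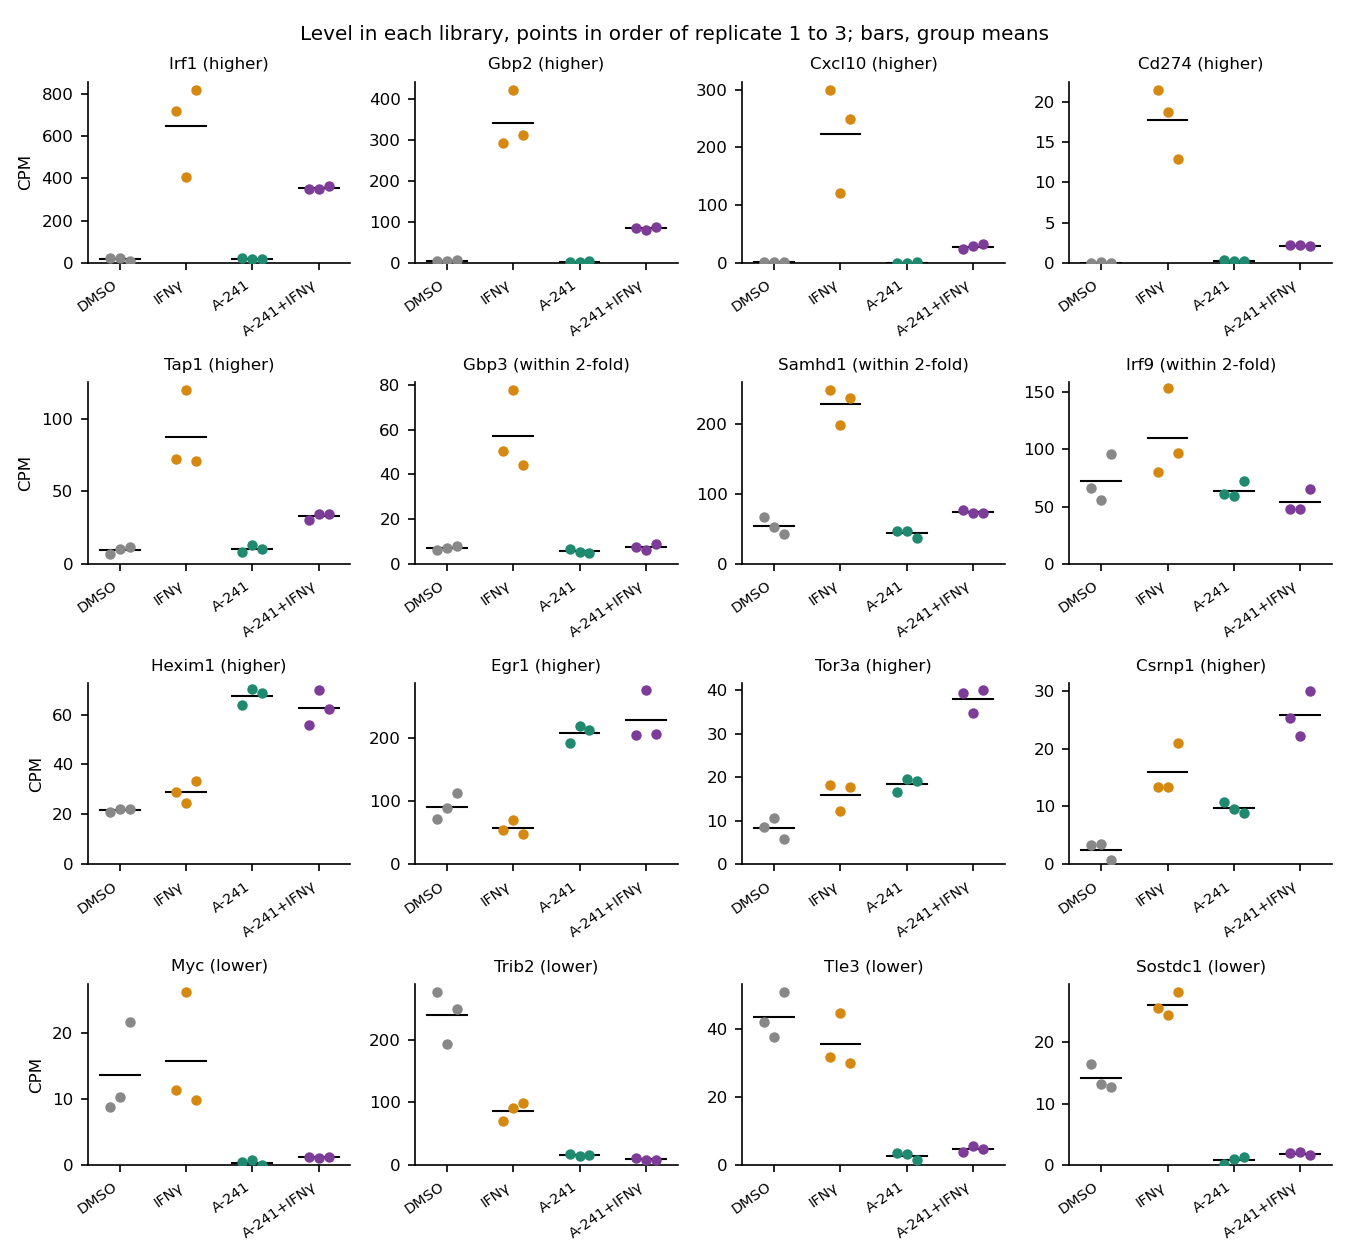
Level of 16 genes, 1 panel each with its state with both agents in brackets, in every library of DMSO, IFNγ, A-241 and A-241+IFNγ (vertical axis, CPM on a linear axis), 1 point a library and a bar for the group mean. Irf1 and Gbp2 remain above the DMSO points with both agents, Gbp3 lies at their height, Hexim1 with both agents overlaps the A-241 points, and Myc, Trib2, Tle3 and Sostdc1 are low in all A-241 and A-241+IFNγ libraries.

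At the other end of the 89 genes, 4 that IFNγ raised beside A-485 stood below the untreated level with A-241+IFNγ, a share of 4.49% beside 3.44% of all genes. Tgm2, a transglutaminase, went from 22.7, 17.6 and 19.3 CPM to 8.03, 8.95 and 9.67 CPM (-1.16 ± 0.22 log2 units, adjusted p = 0.00306), although IFNγ alone gave 39.5, 53.8 and 45.9 CPM. Pik3r1, a regulatory subunit of PI3-kinase, went from 162, 110 and 159 CPM to 73.2, 59.7 and 70.4 CPM (-1.08 ± 0.21, adjusted p = 0.00334). Deptor, an inhibitor of mTOR, fell by 1.00 ± 0.20 log2 units (adjusted p = 0.00418) and Nupr1, a stress-responsive chromatin protein, by 0.99 ± 0.21 (adjusted p = 0.00637). Of the 4, only Tgm2 was called raised by IFNγ alone over DMSO (1.22 log2 units, adjusted p = 0.00281, edgeR). Pik3r1 (0.89, adjusted p = 0.0337), Deptor (0.72, adjusted p = 0.0954) and Nupr1 (0.31, adjusted p = 0.788) did not pass in that comparison. None of the 4 overlapped between DMSO and A-241+IFNγ libraries. Their calls were narrow, however, and each was lost with between 3 and 5 of the 6 libraries left out in turn, with adjusted p-values up to 0.0208 (Tgm2), 0.0245 (Pik3r1), 0.0305 (Deptor) and 0.0422 (Nupr1). With the replicate block, Nupr1 had an adjusted p of 0.0114.

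Motifs were searched in the RefSeq windows of each gene, matched by symbol. A gene with several windows was counted once, as a match if any of them held the motif. Of the 30 genes of the IFNγ class that stayed above DMSO, 24 had a window and 12 of these (50%) held the ISRE core, against 3.73% of all tested genes with a window. Of the 36 unresolved genes of the class, 29 had a window and 12 (41.4%) held it. Among the 19 genes within 2-fold, 13 had a window and 3 (23.1%) held it. The GAS motif TTCNNNGAA was in 7 of 24 genes (29.2%), 5 of 29 (17.2%) and 5 of 13 (38.5%) of these sets. Among all tested genes with a window, 8.16% held it. Of the 77 higher genes outside the class, 64 had a window, and 5 of these (7.81%) held the ISRE core and 12 (18.8%) the GAS motif. Of the 278 lower genes with a window, 11 (3.96%) held the ISRE core and 23 (8.27%) the GAS motif. A match is only a match of letters, and its absence says nothing of sites outside the window.

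Most genes above the untreated level were not of the IFNγ class. These 77 genes had a median difference of 1.23 log2 units from DMSO and only 0.09 from A-241 alone. Lying outside the class does not mean that IFNγ left a gene unchanged. Socs1, for example, missed the cut beside A-485 (5.21 log2 units, adjusted p = 0.0161, edgeR). Of all 107 higher genes, 38 were called raised by IFNγ alone, against 144 of the 11964 genes tested. That comparison shares the DMSO libraries with the main one. Hexim1, the inhibitor of the elongation kinase P-TEFb, stood at 21, 22.2 and 22.1 CPM with DMSO, 29.1, 24.7 and 33.5 CPM with IFNγ, 63.8, 70.2 and 68.8 CPM with A-241, and 55.8, 69.6 and 62.4 CPM with both (1.52 ± 0.14 log2 units above DMSO, adjusted p = 2.72e-06). The A-241 and A-241+IFNγ libraries overlapped, and both lay above all DMSO and IFNγ libraries. Brd2, which encodes a BET reader of acetylated histones, went from 291, 285 and 143 CPM to 663, 679 and 507 CPM (1.36 ± 0.28, adjusted p = 0.00509). That call was lost without A-241+IFNγ replicate 1 (0.0235), 2 (0.0251) or 3 (0.0104) or DMSO replicate 3 (0.0125). Mxd1, an antagonist of MYC, rose by 1.71 ± 0.32 log2 units (adjusted p = 0.00282), with an adjusted p of 0.0102 to 0.0189 without A-241+IFNγ replicate 2 or 3 or DMSO replicate 2. The immediate early gene Egr1 stood at 72.6, 89.5 and 112 CPM with DMSO and 204, 275 and 206 CPM with both (1.32 ± 0.19, adjusted p = 0.000297).

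Hexim1 is shown as a promoter without either interferon motif. Its window lies at chr11:103116075-103116374 on the plus strand of GRCm38.p6.
Hexim1: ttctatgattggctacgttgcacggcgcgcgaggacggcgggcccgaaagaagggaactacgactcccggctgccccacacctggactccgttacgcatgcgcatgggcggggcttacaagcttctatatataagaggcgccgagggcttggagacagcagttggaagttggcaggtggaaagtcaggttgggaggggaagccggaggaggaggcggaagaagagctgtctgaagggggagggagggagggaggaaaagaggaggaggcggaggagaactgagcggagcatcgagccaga

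Set against each single treatment, the 107 higher genes fell into kinds. Of these, 29 were called above IFNγ alone (0.543% of all genes were), among them Hexim1, Brd2, Mxd1, Egr1, Tor3a and the replication factors Cdc6 and Clspn. A further 19 were called below IFNγ alone, including Cxcl10, Gbp2, Igtp, Irgm1, Tap1 and Stat2. Against A-241 alone, 17 were called higher and 0 lower (edgeR, beside 2 lower at an unadjusted p under 0.05 and 0 by DESeq2 or limma-voom), led by Gm4841, Cxcl10, Irf1 and Gbp2. Both comparisons reuse the A-241+IFNγ libraries on which the 107 genes were chosen. That choice favours calls above a single treatment, so the counts only describe these genes. The count above IFNγ alone was 15 with the replicate block, 10, 12 and 12 without A-241+IFNγ replicate 1, 2 or 3, and 14 without DMSO replicate 2. The count below IFNγ alone was 9, 12 and 11 without A-241+IFNγ replicate 1, 2 or 3, and the count above A-241 alone was 11 without A-241+IFNγ replicate 3.

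A few genes named here had their highest mean level with both agents. Tor3a, an interferon-responsive ATPase, stood at 8.62, 10.7 and 5.86 CPM with DMSO, 18.1, 12.2 and 17.8 CPM with IFNγ and 16.6, 19.6 and 19.1 CPM with A-241. With both it reached 39.3, 34.8 and 39.9 CPM (2.14 ± 0.20 log2 units above DMSO, adjusted p = 3.37e-06), above every library of either single treatment. It was called above IFNγ alone (1.23, adjusted p = 0.000511) but did not pass against A-241 alone (1.04, adjusted p = 0.0175). Csrnp1, a cysteine- and serine-rich nuclear protein, stood at 3.37, 3.47 and 0.69 CPM with DMSO and 25.2, 22.1 and 29.8 CPM with both (3.23 ± 0.33, adjusted p = 7.35e-06), and did not pass against IFNγ (0.69, adjusted p = 0.159) or A-241 (1.40, adjusted p = 0.0451). By edgeR, 0 of the 107 higher genes were called above both single treatments, against 2 by DESeq2 and 1 by limma-voom, and 6 had an unadjusted p under 0.05 in both.

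The 411 lower genes had a median of -1.67 log2 units against DMSO, -1.32 against IFNγ alone and -0.06 against A-241 alone. Of these, 252 were called below IFNγ alone (3.54% of all genes were), a count of 129, 134 and 137 without A-241+IFNγ replicate 1, 2 or 3 and 401 without both libraries richest in Gm42418. The 411 genes were chosen on the same A-241+IFNγ libraries, which favours calls below IFNγ alone, so the count only describes them. Against A-241 alone, 0 of the 411 were called by edgeR, with 19 higher and 50 lower at an unadjusted p under 0.05, 2 called lower by DESeq2 and 0 by limma-voom. Without IFNγ replicate 2, 1 was called by edgeR.

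Trib2, a pseudokinase that scaffolds protein degradation, fell far below its untreated level. It stood at 276, 193 and 248 CPM with DMSO and at 11.9, 7.65 and 8.44 CPM with both agents, a difference of -4.68 ± 0.24 log2 units (adjusted p = 9.82e-09). No library of the groups overlapped. IFNγ alone gave 69.9, 91 and 99.1 CPM and A-241 alone 18.5, 14.4 and 16 CPM, so that the level with both lay below every library of either single treatment. The difference from A-241 alone, -0.81 log2 units, did not pass (adjusted p = 0.341). Kcnn4, a calcium-activated potassium channel, went from 96.8, 80.3 and 70.7 CPM to 5.43, 5.86 and 5.56 CPM (-3.87 ± 0.19, adjusted p = 6.48e-09). Depp1, a target of FOXO factors, had 184 counts over the DMSO libraries and 1 over the A-241+IFNγ libraries, a ratio of 205 with a counting interval of 36.4 to 8.15e+03.

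Of 20 Notch, Wnt and lineage transcription factor genes tested, 11 stood below DMSO, 1 was within 2-fold, 8 were unresolved and 0 were called higher (also 0 at an unadjusted p under 0.05 and by DESeq2 and limma-voom), with a median of -1.45 log2 units. All 20 fitted values were below zero, from -3.16 (Tle3) to -0.38 (Tcf7). Of all genes tested, 3.44% were lower. The list was chosen with earlier results of these data known, so its common direction is a description and not an independent test. Tle3, a co-repressor of Wnt and Notch targets, went from 41.9, 37.6 and 50.7 CPM to 3.91, 5.69 and 4.73 CPM (adjusted p = 1.18e-06). Sox4, a progenitor factor, went from 182, 211 and 157 CPM to 32.6, 32.7 and 22 CPM (-2.65 ± 0.22, adjusted p = 9.7e-07). Trp63, the basal-cell factor p63, fell by 2.36 ± 0.31 log2 units (adjusted p = 0.000111), and the Notch target Hey1 by 2.89 ± 0.41 (adjusted p = 0.000275). Foxc1 (-2.03), Ets1 (-2.10), Irx3 (-1.82), Irx5 (-1.71), Gata3 (-1.29), Ets2 (-1.29) and Sox9 (-1.13) were also lower. The epithelial factor Ehf, outside the list, went from 84.8, 94.5 and 148 CPM to 9.12, 6.83 and 7.41 CPM (-3.80 ± 0.28, adjusted p = 2.79e-07). Jag1, a Notch ligand, fell by 3.94 ± 0.46 log2 units (adjusted p = 3.59e-05). Lfng, which glycosylates Notch, stood at 10.7, 10.4 and 35.5 CPM with DMSO and at 0.868, 0.325 and 1.65 CPM with both (-4.29 ± 0.68, adjusted p = 0.00062).

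Targets and regulators of BMP, TGF-β and YAP gave 6 lower, 6 within 2-fold and 7 unresolved of 19, with a median of -1.04 log2 units. Id4 and Id2 encode inhibitors of basic helix-loop-helix factors. Id4 went from 33.2, 49.1 and 53.8 CPM to 4.78, 6.02 and 3.29 CPM (-3.25 ± 0.28, adjusted p = 1.42e-06), and Id2 from 286, 222 and 213 CPM to 73.6, 56.1 and 67.5 CPM (-1.87 ± 0.20, adjusted p = 1.1e-05). The secreted antagonists Fst and Sostdc1 fell as well, Fst from 35.5, 32.8 and 26.9 CPM to 4.56, 5.86 and 4.73 CPM (-2.64 ± 0.25, adjusted p = 3.47e-06). Id1 (-0.33), of the same family as Id2 and Id4, was within 2-fold, and the YAP targets Ccn1 (1.92) and Ccn2 (-1.92) were unresolved.

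In lists of growth and survival regulators a minority of members were called, where 0.894% of all genes tested were higher and 3.44% lower. Of 11 genes of the Myc, Max and Mxd network, 2 were lower, 1 higher, 3 within 2-fold and 5 unresolved. Myc went from 8.83, 10.4 and 21.7 CPM to 1.3, 1.14 and 1.24 CPM (-3.42 ± 0.54 log2 units, adjusted p = 0.000607). Its network partner Mnt was lower by 2.32 ± 0.43 (adjusted p = 0.0025), a call lost without A-241+IFNγ replicate 1 (0.0176) or 2 (0.016), while Max (0.18) was unresolved and Mxd4 (-0.23) within 2-fold. Klf4, a reprogramming factor, stood at 242, 159 and 662 CPM with DMSO, with the highest value in replicate 3, and at 28, 25.5 and 31.1 CPM with both. The difference was -3.65 ± 0.59 (adjusted p = 0.000714) and, without DMSO replicate 3, -2.82 (adjusted p = 0.00165). Lfng and the water channel gene Aqp5 were likewise highest in that library, and without it their differences were -3.49 and -2.81. Of 10 NF-κB subunit and feedback genes, 1 was lower, 5 were within 2-fold and 4 unresolved. Bcl3, a nuclear partner of NF-κB, fell by 2.52 ± 0.35 (adjusted p = 0.000189), whereas Rela (0.10) and Nfkbia (0.12) were within 2-fold. Of 15 p53 targets, Gdf15 (-2.76) and Phlda3 (-1.86) were lower, 5 including Cdkn1a (-0.24) were within 2-fold and 8 were unresolved, and the call for Gdf15 was lost without A-241+IFNγ replicate 1 (0.011). Of 12 BCL2 family genes, 1 was lower, 3 were within 2-fold and 8 unresolved. The survival gene Bcl2l1 was that 1, lower by 1.07 ± 0.23 (adjusted p = 0.0064), but its p was 0.0154 with the replicate block and 0.0169 to 0.0409 without A-241+IFNγ replicate 2 or 3 or DMSO replicate 1 or 3.

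**Figure D4:**
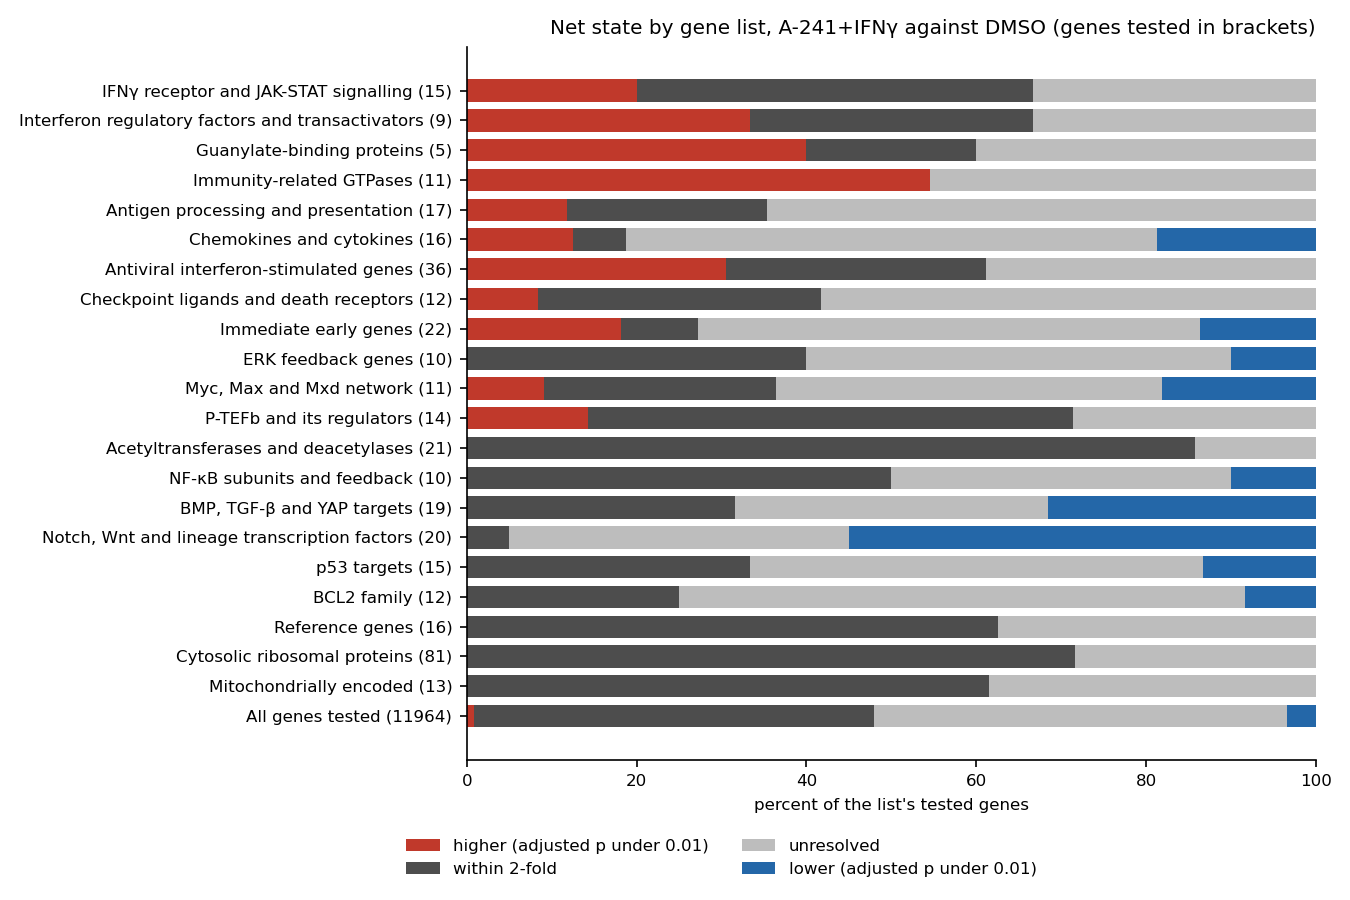
Share of the tested members of each gene list that were higher, within 2-fold, unresolved or lower with A-241+IFNγ against DMSO (horizontal axis, percent of the genes tested, whose number stands in brackets). The immunity-related GTPases hold only higher and unresolved members, the Notch, Wnt and lineage list holds 11 lower members of 20, and the ribosomal and acetyltransferase lists hold 0 called members.

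Genes that A-485 lowered under IFNγ, taken from A-485+IFNγ against IFNγ, gave a class set on libraries outside the comparison. There were 64 such genes (0.535% of those tested). With A-241+IFNγ, 43 of them (67.2%) stood below DMSO, against 3.44% of all genes, 4 stood above it, 4 were within 2-fold and 13 were unresolved. The median was -1.80 log2 units. The 43 included Trib2, Kcnn4, Ehf, Sox4 and Id4 as well as Notch1 (-2.68), Runx1 (-3.27), Ccnd1 (-1.77) and Cebpb (-2.12), which encode a receptor of the Notch pathway, a blood and mammary transcription factor, a D-type cyclin and a regulator of luminal differentiation. Those above DMSO included the interferon-responsive genes Cd274, Igtp and Gbp7, and Ifi204 and Gbp3 were among the 4 within 2-fold. The count of 43 became 23 with the replicate block, 65 without DMSO replicate 3, 28 without A-241+IFNγ replicate 2, and 167 without both libraries richest in Gm42418, the class being set again each time.

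A-485+IFNγ is the closest neighbouring treatment, with an inhibitor of the same enzymes at another dose. Against it, 1 of the 107 higher genes stood higher with A-241+IFNγ (0.00836% of all genes did) and 7 stood lower (0.51% of all genes did). The 1 higher gene was Hexim1, at 62.6 CPM on average against 30.8 CPM (1.02 log2 units, adjusted p = 0.00101). The 7 lower genes were Gm4841, Cxcl10, Gbp2, Cxcl9, Iigp1, Igtp and Oasl2. Cxcl9 stood 4.73 log2 units lower than with A-485+IFNγ (adjusted p = 1.23e-05), Iigp1 2.43 (adjusted p = 0.000138) and Gbp2 1.21 (adjusted p = 0.00251). Irf1 did not pass (-0.51, adjusted p = 0.853). Of the 411 lower genes, 30 were called below A-485+IFNγ and 0 above it by edgeR. This comparison, too, reuses the A-241+IFNγ libraries on which the higher and lower genes were chosen. The gap was wide for Sostdc1, which stood at 16.4, 13.2 and 12.8 CPM with DMSO and 1.95, 2.12 and 1.65 CPM with A-241+IFNγ but at 15.2 CPM on average with A-485+IFNγ (direct difference -2.97 log2 units, adjusted p = 2.94e-05). Fst (-1.72), Phlda1 (-1.61), Pik3r1 (-1.57), Bcl3 (-2.05) and Nupr1 (-1.49) were further examples. Without A-241+IFNγ replicate 1, 2 or 3 the count of 7 was 2, 3 and 2 and the count of 30 was 14, 8 and 9, and without IFNγ replicate 2 the count of 7 was 12. The doses differed by the study's methods (250 nM against 1000 nM), so these values compare the treatments as given and not the molecules.

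**Figure D5:**
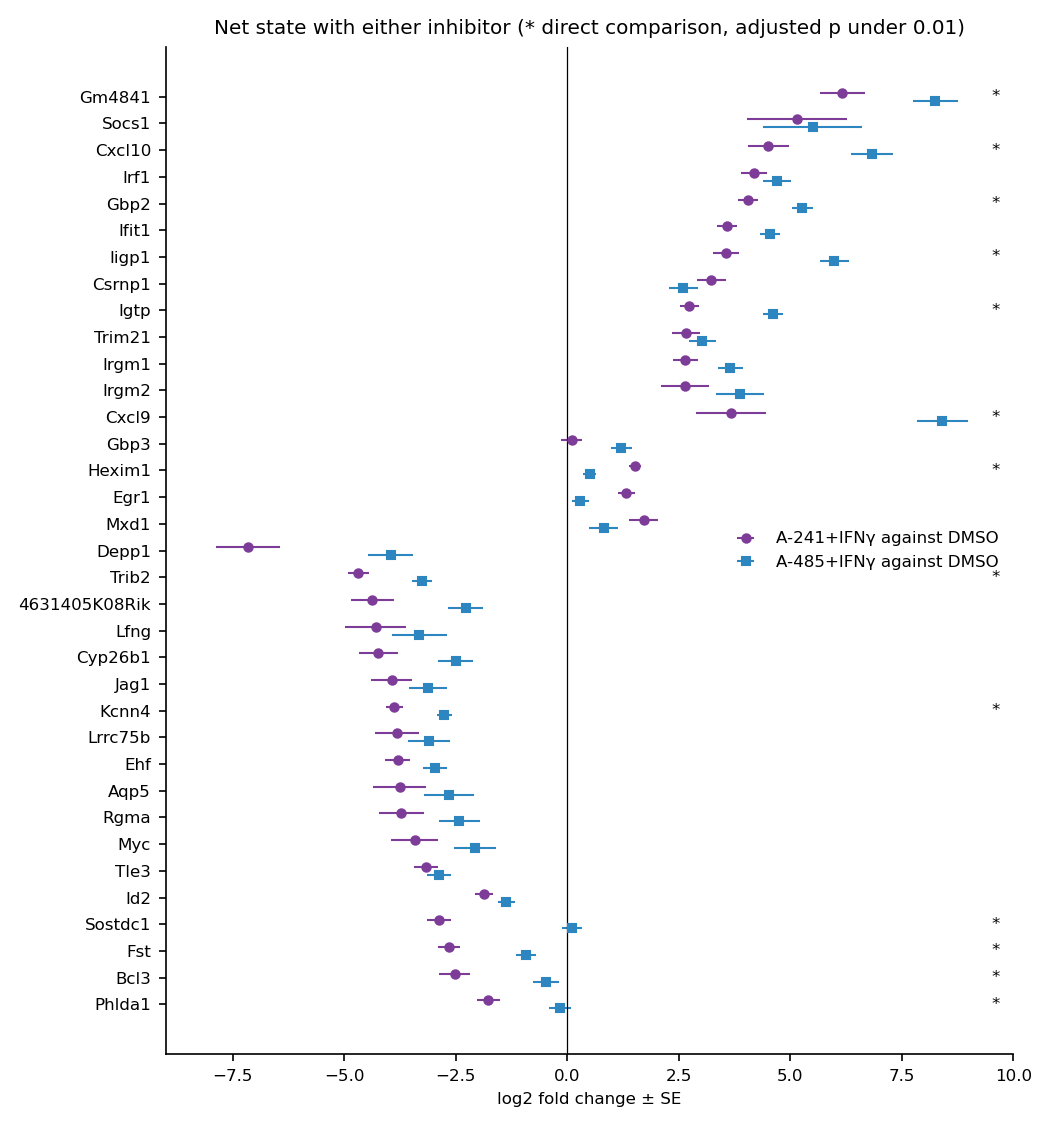
Level of named genes relative to DMSO (horizontal axis, log2 fold change) with A-241+IFNγ and with A-485+IFNγ, both against the same DMSO libraries, with bars for the standard error and an asterisk where the direct difference passed an adjusted p of 0.01. Cxcl9 and Sostdc1 lie far lower with A-241+IFNγ, and Irf1 carries no asterisk.

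Several large groups lay mostly within 2-fold of the untreated level, where 47.1% of all genes tested did. Of 21 acetyltransferase and deacetylase genes, 18 were within 2-fold and 0 were called (edgeR, beside 2 higher and 2 lower at an unadjusted p under 0.05, and 1 higher by DESeq2). Ep300 stood at 24, 23.9 and 21 CPM with DMSO and 23.7, 27.3 and 26.8 CPM with both agents (0.17, 95% interval -0.15 to 0.49), and Crebbp at 82.9, 70 and 82.4 CPM and 82.1, 90.8 and 91.4 CPM (0.17, -0.13 to 0.47), so the mRNAs of both target enzymes lay within 2-fold of the untreated level. Of 81 cytosolic ribosomal protein genes, 58 were within 2-fold and 0 were called (1 lower at an unadjusted p under 0.05, and 0 by DESeq2 or limma-voom). The median was 0.08 log2 units. Of 16 reference genes, 10 were within 2-fold, among them Tubb5 (95% interval -0.32 to 0.31). Actb was unresolved, at 5532, 4342 and 12960 CPM with DMSO, where replicate 3 lay far above the others. The tested marker genes of leukocytes, fibroblasts and endothelium were unresolved by edgeR. Among them the fibroblast gene Pdgfra had 12, 14 and 9 counts with DMSO and 0, 3 and 2 with both agents (-2.92 ± 0.72 log2 units, adjusted p = 0.0166), and it was called lower by DESeq2 and limma-voom. Ptprc and Pecam1, of leukocytes and endothelium, were detected at up to 1.85 and 4.12 CPM in the libraries compared.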

How the data were processed

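AT3 mouse mammary carcinoma cells were profiled by QuantSeq 3′ mRNA sequencing in 6 groups of 3 libraries, 18 in all, of which 6 were compared here. The authors demultiplexed reads with bcl2fastq 2.17.1.14, checked them with FastQC 0.11.5, trimmed them with cutadapt 1.7, aligned them to the mouse genome GRCm38/mm10 with HISAT2 2.1.0 and counted them per gene with featureCounts, where a read over overlapping genes was counted for each (tool versions from the submitters' processing notes). The deposited values are raw counts per Ensembl gene. Of 43629 identifiers, 42548 matched GENCODE vM21, from which symbols and positions were taken.

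All 18 libraries were fitted together with edgeR 4.0.16 (R 4.3.3) after filterByExpr and TMM scaling, with quasi-likelihood tests, Benjamini-Hochberg adjustment over all 11964 genes and calls at an adjusted p under 0.01. Every log2 fold change, SE and 95% interval comes from this fit, and CPM uses the TMM-scaled library size. The script was tested on simulated counts. Where a group held 1 to 3 counts of a gene in all, a ratio of summed counts with an exact binomial interval is given, which covers counting error only. Named genes were the 12 largest increases and 12 largest decreases with at least 50 counts in the higher group and groups that did not overlap, up to 4 called and 4 not called members of each gene list, and a fixed set from Irf1 to Crebbp. Some genes so named are not reported here. Ifi200 genes, Psmb10, Samhd1, Tlr3, Ifit2, Tgm2, Nupr1, Pik3r1, Deptor and the members of a count named in passing were chosen after their values were seen. The comparison, gene lists and tests were chosen with earlier results of these data known. The comparisons of A-485+IFNγ with A-485 and with IFNγ were added after the data were seen, to set gene classes on libraries that the main comparison does not use.

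Depth was 3417167 to 7856830 counts per library, and the common biological coefficient of variation was 0.263. No replicate pair was alike within counting noise (chi-square per degree of freedom 2.09 to 125). The replicate numbers of A-241+IFNγ and DMSO come from the sample titles. Deviations of same-numbered libraries from their group means had correlations over genes of 0.205, 0.477 and 0.186. For differently numbered libraries these ran from -0.325 to 0.114. Deviations from a shared mean are not independent of each other. The fit with the replicate number as a block is given for the genes higher and lower and where it changes a call. Alternatives were DESeq2 1.42.0, limma-voom 3.58.1, other scalings, filters and thresholds, 2 surrogate variables (sva 3.50.0), subsets of libraries and the replicate block. Promoter windows are RefSeq's on GRCm38.p6, matched by symbol.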

Additional observations from a re-analysis of the deposited data

How the results depend on the processing

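The 64 named calls kept their direction under every alternative, and 46 of them stayed below an adjusted p of 0.01 with each of the 6 compared libraries left out. Under the other settings together 25 of the 64 stayed called: 37 were lost with the 6 compared libraries fitted alone, 17 in the test against a 1.5-fold change, 7 with total counts, 7 with the replicate block, 3 with limma-voom, 2 with no filter and 1 with the 10-count filter. Genes higher, lower and within 2-fold of DMSO numbered 107, 411 and 5633. With DESeq2, 199 genes were higher, and 28 higher and 186 lower genes passed a test against a 1.5-fold change. An adjusted p of 0.05 gave 308 and 670, and 1727 genes had intervals within 1.5-fold. The replicate block gave 74 and 316. The 6 compared libraries alone gave 13 and 64, where fewer libraries estimate the spread. Leaving out both libraries richest in Gm42418 (DMSO replicate 3 and IFNγ replicate 2) gave 228 and 656, and 2 surrogate variables gave 770 and 1045. The cause of these differences was not tested. Total-count scaling shifted the median of all genes by 0.119 log2 units.

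Higher genes above A-241 alone (17) numbered 29 with DESeq2, 11 with at least 10 counts in every library, 34 without both Gm42418-rich libraries and 63 with surrogate variables. Higher genes above IFNγ alone (29) numbered 65 with DESeq2, 17 with no filter, 63 without both Gm42418-rich libraries, 271 with surrogate variables and 15 with the replicate block. Higher genes below IFNγ alone (19) numbered 10 with the 10-count filter and 55 with surrogate variables. Higher genes below A-485+IFNγ (7) numbered 3, 13 and 26 with the 10-count filter, without both Gm42418-rich libraries and with surrogate variables. Lower genes called against A-241 alone (0) numbered 3 with DESeq2, 1 with total counts, 1 with no filter, 4 without both Gm42418-rich libraries and 25 with surrogate variables. Lower genes below IFNγ alone (252) numbered 401 and 690 under the last 2 settings, and lower genes below A-485+IFNγ (30) numbered 56 with DESeq2, 84 and 175.

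Of genes raised by IFNγ beside A-485, 47 and 96 were higher (30 in the main fit) without both Gm42418-rich libraries and with surrogate variables, and 60 and 87 were within 2-fold (19), against 34 with DESeq2. Of genes lowered by A-485 under IFNγ, the 43 lower ones numbered 136 with DESeq2, 25 with total counts, 167 without both Gm42418-rich libraries, 253 with surrogate variables and 23 with the replicate block.

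With 1 library left out, IFNγ replicate 2 included, the ranges were 55 to 201 higher, 221 to 552 lower and 4396 to 6350 within 2-fold, then 11 to 24 and 10 to 27 above A-241 and IFNγ alone, 9 to 25 below IFNγ alone and 2 to 12 below A-485+IFNγ. For the lower genes they were 0 to 1 against A-241, 129 to 250 below IFNγ and 8 to 41 below A-485+IFNγ. For the classes they were 22 to 37 higher, 13 to 28 within 2-fold and 28 to 65 lower. The replicate block ended the calls of Socs1, Irgm2, Irf7, Cxcl9, Cxcl5, Bcl2l1 and Nupr1 and changed no other call among the named genes. Counts of called members of the gene lists moved by more than 1.5 times, or to or from 0, in 118 of 1000 cases. Many of these counts were 0 in the main fit, and 0 under both settings was scored as unmoved. The share therefore says little of how stable the other counts were. Depth limited the genes with few counts in DMSO, whose fitted fold changes rest on a handful of reads.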
